A study of Mus musculus with 12 samples.

Results

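The genes described here dispose of amino acid nitrogen in the liver: the urea cycle (Cps1, Otc, Ass1, Asl and Arg1), the enzyme that makes the cofactor of its first step (Nags), and enzymes that move nitrogen into or out of it (Got1, Gls2, Glul and Gatm). They were taken as a named list of 10 genes, and every probe set annotated to one of them was used. Of the 10 genes, 9 had a probe set in the gene table used, 11 probe sets in all among 35557 on the array. For 8 genes (Cps1, Otc, Asl, Arg1, Nags, Got1, Glul and Gatm) a probe set was annotated to that gene alone, and these are 8 of the 19938 genes tested. Both Ass1 probe sets were annotated to Ass1 together with Gm5424, a pseudogene of it, so their values are given as joint values. Gls2 was not listed and is not analysed here.

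Expression was measured with Affymetrix whole-transcript arrays in whole liver of 129Sv mice aged 12 weeks, killed after a fast of 24 h. The 4 groups were SIRT3KO mice on a high-fat Western diet (42% fat, given from weaning), wild-type (WT) mice on that diet, SIRT3KO mice on a standard diet and WT mice on a standard diet, with 3 arrays each. KO stands below for SIRT3KO, which the labels give as a genotype with no word on the allele, on the tissues it reaches or on sex. The labels do not say that each array is a separate animal, so p-values measure the spread between these samples, which may be partly technical. Livers counted below, also in the figures, are therefore the samples on single arrays.

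The urea cycle turns ammonia and the amino group of aspartate into urea. It starts in the mitochondria of hepatocytes around the portal vein, where Cps1 fixes ammonia and Otc forms citrulline, and ends in the cytosol with Ass1, Asl and Arg1. Ammonia that passes these cells is caught by glutamine synthetase, encoded by Glul, in the last hepatocytes before the central vein. The transcripts of the cycle are known to rise with fasting, protein intake, glucagon and glucocorticoids. SIRT3, a deacetylase of the mitochondrial matrix, is known to act on the Otc protein, which an array of transcripts does not measure.

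Values are the authors' log2 expression values, so a difference of 1 is a doubling, and levels of different probe sets are not set against each other. The test was limma, and called means an adjusted p under 0.05 after Benjamini-Hochberg adjustment over all 19938 genes. Genotype and diet differences share arrays and are not independent of each other. The median standard error over genes was 0.114 for a difference within a diet or a genotype. The mean level of 10 hepatocyte markers such as Alb and Apoa1 lay between 13.30 and 13.41 on every array, and that of 12 pancreas and kidney markers between 5.95 and 6.23. The Sirt3 signal was 8.92, 8.49 and 8.87 in KO against 9.29, 9.14 and 9.13 in WT livers on the high-fat diet, and 8.83, 8.94 and 8.95 in KO against 8.97, 9.04 and 9.13 in WT livers on the standard diet. It was lower on every KO array of a diet and did not pass the test (adjusted p = 1 and 0.66), and the position of its probes is not given in the sources used here, so it cannot check the labels. On KO standard-diet replicate 1, 16 acute phase genes averaged 12.35, against 10.66 and 10.66 on the other KO arrays and 10.54 to 10.61 on the WT arrays of that diet, and 12 male-biased liver genes averaged 8.59, against 9.43 to 9.92 on those same arrays. The 3 Y-linked genes measured were lowest of all 12 arrays there, Kdm5d at 6.17 against 6.73 to 7.38 on the other arrays, Uty at 6.51 against 7.43 to 8.17 and Eif2s3y at 7.55 against 8.19 to 9.14, while Xist was at 4.44 there and at 4.31 to 4.80 on the others. The differences of the 8 genes that use that array, and those of the main genes beside them, are also given without it below. The part of these signals in the results was not tested. For 335 probe sets a value is missing on all 6 standard-diet arrays and on no high-fat array, as separate normalization runs for the 2 diets would leave it. Each diet difference below may therefore hold an offset between runs, and diet and run cannot be told apart, while genotype differences lie within a run.

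Promoters of 6 of the 10 genes (Otc, Ass1, Nags, Got1, Glul and Gatm) were in the RefSeq table used, each 300 bases long, from 250 before to 50 after the annotated start (GRCm38.p6, a C57BL/6J assembly, whereas the mice are 129Sv). Those of Got1, Glul and Gatm, enzymes outside the cycle, are printed beside values described below. These are the diet differences of Got1 and Glul and the genotype differences of Got1 and Gatm, of which the genotype differences were not called. Capitals mark CCAAT on either strand (ATTGG when it lies on the other strand), the core of the site bound by the factor NF-Y. The windows are chr19:43524556-43524855 (minus strand) for Got1, chr1:153899679-153899978 (plus strand) for Glul and chr2:122611228-122611527 (minus strand) for Gatm.
Got1: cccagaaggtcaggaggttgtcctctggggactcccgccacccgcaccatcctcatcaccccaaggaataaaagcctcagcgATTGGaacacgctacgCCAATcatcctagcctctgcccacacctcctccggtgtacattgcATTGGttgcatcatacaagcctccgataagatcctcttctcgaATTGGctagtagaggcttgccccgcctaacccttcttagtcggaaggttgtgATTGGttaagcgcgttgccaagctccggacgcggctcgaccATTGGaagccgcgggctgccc
Glul: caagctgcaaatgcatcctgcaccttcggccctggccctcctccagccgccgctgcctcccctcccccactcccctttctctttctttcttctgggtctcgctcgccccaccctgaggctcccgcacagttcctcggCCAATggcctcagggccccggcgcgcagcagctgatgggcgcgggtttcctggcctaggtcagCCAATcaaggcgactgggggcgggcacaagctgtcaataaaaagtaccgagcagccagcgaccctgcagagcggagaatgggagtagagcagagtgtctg
Gatm: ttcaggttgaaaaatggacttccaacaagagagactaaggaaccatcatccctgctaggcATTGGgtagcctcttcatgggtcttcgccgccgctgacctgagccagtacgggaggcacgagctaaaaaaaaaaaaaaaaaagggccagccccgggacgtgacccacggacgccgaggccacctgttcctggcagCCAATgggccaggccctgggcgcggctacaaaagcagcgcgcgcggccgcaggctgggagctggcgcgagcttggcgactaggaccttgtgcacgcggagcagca

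The Got1 window held 6 matches to CCAAT, on both strands. At least 6 were found in 0.0791% of 32851 mouse promoters of this length, while 37.4% held at least 1. The cutoff of 6 was taken from Got1 itself, the window with most matches of those searched, so the small share describes a picked case. Glul and Gatm held 2 each, and Otc, Ass1 and Nags held 0. AGGTCA, a half-site of nuclear receptors, was found once each in Nags, Got1, Glul and Gatm, and in 16.3% of all promoters. TGACG, the half-site of CREB, was found once in Nags and in 20.8% of all promoters. TATAA was found in Ass1 and in 24.9% of all promoters. In Ass1 it matched at 1 stretch (ttataa), read once on each strand. TGACGTCA, the full CREB site, and TGTTCT, a half-site of the glucocorticoid receptor, were in none of the 6 windows, against 1.79% and 19.0% of all promoters. Both strands were searched for each motif, a palindrome such as TGACGTCA was counted once per place, and TGACG lies within TGACGTCA. These are matches of letters in 1 window per gene and not measured binding.

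On the high-fat diet, Asl, Arg1 and Got1 were lower in both genotypes, with differences of -32.5% to -41.1%, beside 2.66% of all genes called lower in KO and 1.69% in WT livers. Cps1 and the joint Ass1 signal moved little. In the mean of both genotypes Otc was called higher (0.26, limma adjusted p = 0.0263), beside 10.3% of all genes. Nags was called lower in that mean (-0.25, limma adjusted p = 0.0386), beside 7.69% of all genes. Both of these calls ended without any 1 of several arrays. Glul was higher, with a call in KO livers and in the mean of both genotypes, beside 2.45% and 10.3% of all genes. The Glul call in KO livers and the Got1 call in WT livers also ended when certain single arrays were left out. None of these diet calls passed once a variance for an offset between normalization runs was added (adjusted p = 1 for each). No gene of the list was called between KO and WT livers on the high-fat or the standard diet, beside 0% and 0.00502% of all genes. The genotype difference with the smallest p was that of Gatm on the high-fat diet, where all 3 KO livers lay below all 3 WT livers.

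**Figure D1:**
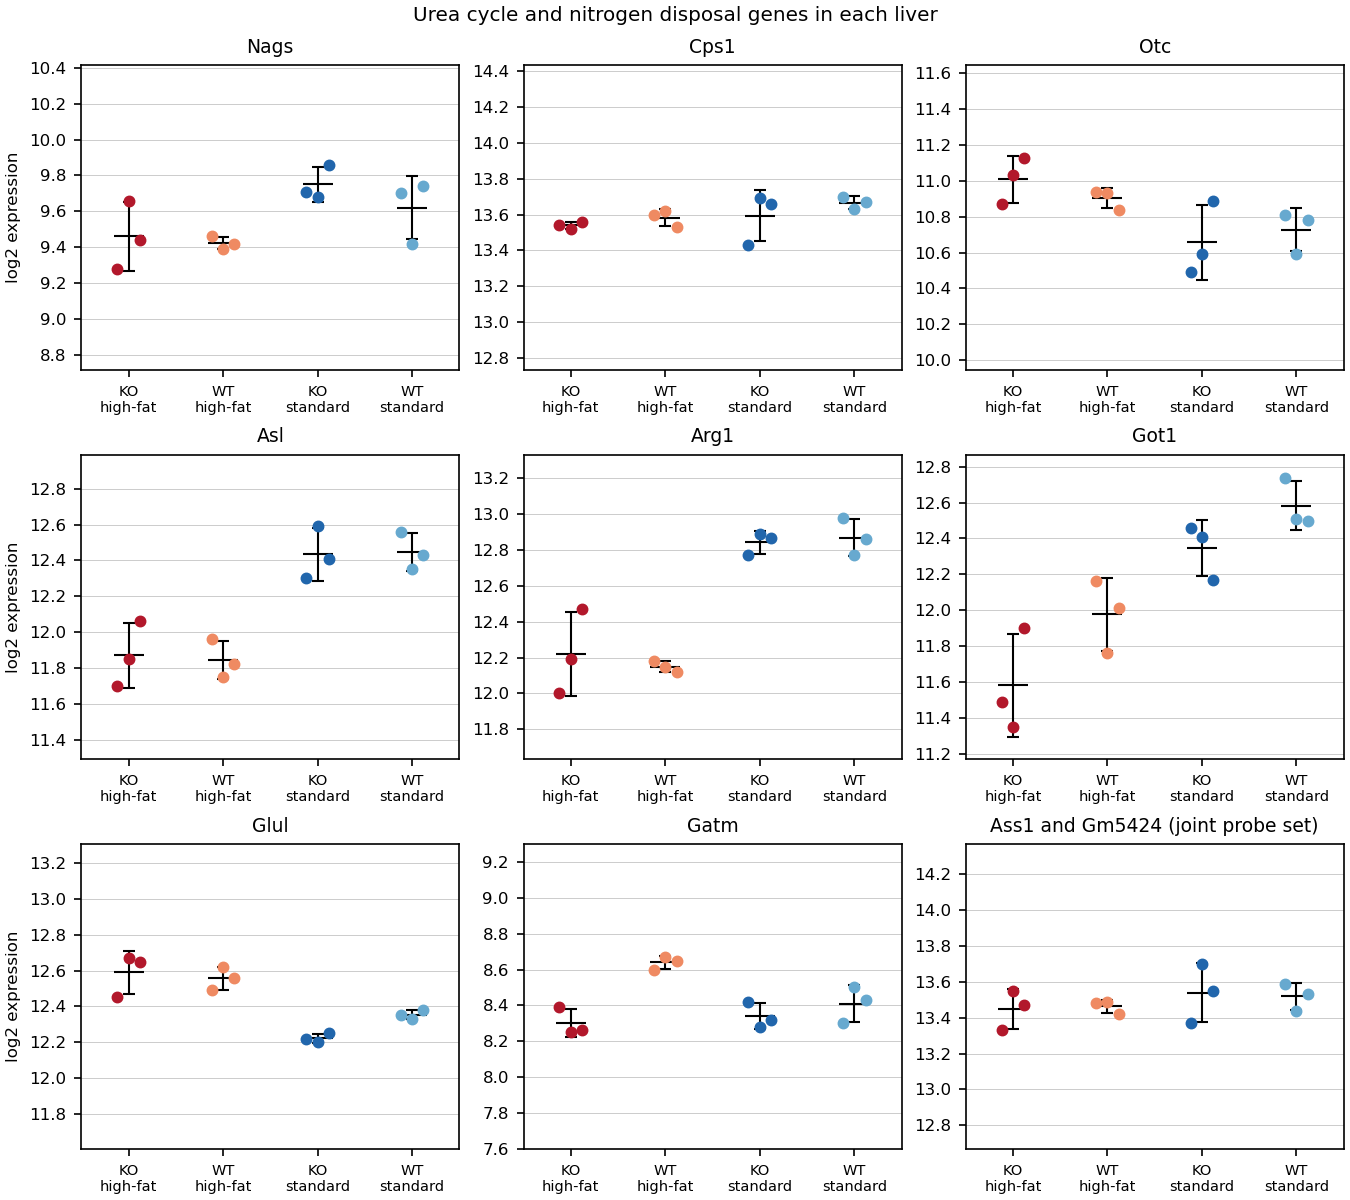
Log2 expression of the 8 genes with a probe set of their own and of the brighter joint Ass1 and Gm5424 probe set in each of 12 livers (points), by group, with the group mean (horizontal line) and SD (bars, n = 3 arrays per group); all panels span the same number of log2 units. The high-fat points of Asl and Arg1 lie below all standard-diet points, and the WT high-fat points of Gatm (8.60 to 8.67) lie above all others.

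Nags makes N-acetylglutamate, without which Cps1 is inactive. Its level was 9.28, 9.66 and 9.44 in KO livers and 9.46, 9.39 and 9.42 in WT livers on the high-fat diet. Standard-diet levels were 9.71, 9.68 and 9.86 in KO livers and 9.70, 9.42 and 9.74 in WT livers. All high-fat KO livers lay below all standard-diet KO livers, while the WT groups overlapped. The diet difference was -0.29 in KO (adjusted p = 0.134) and -0.20 in WT (adjusted p = 0.293), and the mean of both was called at -0.25 (SE 0.0767, 95% interval -0.41 to -0.08, limma adjusted p = 0.0386). That call ended without any 1 of 9 of the 12 arrays (WT standard replicates 1 and 3, KO standard replicates 1 and 3, all 3 WT high-fat arrays and KO high-fat replicates 1 and 3), with adjusted p between 0.0504 and 0.0968. It also ended with array weights (0.0835, in a range of 0.0187 to 0.0835 over 8 other settings), in the fit of all probe sets (0.0601) and, narrowly, with the replicate number as a block (0.05 when rounded). Between the genotypes, KO minus WT was 0.04 (interval -0.19 to 0.27) on the high-fat and 0.13 (-0.10 to 0.36) on the standard diet, and neither was called.

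Cps1, the entry step of the cycle and one of the most abundant proteins of liver mitochondria, had the narrowest range of group means of the 8 genes. It stood at 13.54, 13.52 and 13.56 in KO livers and at 13.60, 13.62 and 13.53 in WT livers on the high-fat diet. With the standard diet it stood at 13.43, 13.69 and 13.66 in KO livers and at 13.70, 13.63 and 13.67 in WT livers. The WT high-fat arrays lay just below all WT standard-diet arrays, and the KO groups overlapped. High-fat minus standard diet was -0.05 in KO and -0.09 in WT livers, and -0.07 in the mean of both (SE 0.0533, adjusted p = 0.407). KO minus WT was -0.04 on the high-fat diet (interval -0.20 to 0.13) and -0.07 on the standard diet (-0.23 to 0.09).

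Otc, which joins ornithine and carbamoyl phosphate to citrulline, was higher on the high-fat diet in the mean of both genotypes. Its level was 10.87, 11.03 and 11.13 in KO livers and 10.94, 10.93 and 10.84 in WT livers on the high-fat diet. Its standard-diet level was 10.49, 10.59 and 10.89 in KO livers and 10.81, 10.59 and 10.78 in WT livers. All WT high-fat livers lay above all WT standard-diet livers, and in KO livers KO high-fat replicate 1 and KO standard replicate 3 overlapped. The diet difference was 0.35 in KO (interval 0.12 to 0.58, adjusted p = 0.0728) and 0.18 in WT (adjusted p = 0.342), and the mean of both, 0.26 (SE 0.0756, interval 0.10 to 0.43, 20.2% higher), was called with limma adjusted p = 0.0263. This call ended without any 1 of 7 arrays (WT standard replicate 2, KO standard replicates 1 and 2, WT high-fat replicates 1 and 2, KO high-fat replicates 2 and 3), with adjusted p from 0.0508 to 0.072, and with each array centred on its median (0.0882, in a range of 0.00337 to 0.0882 over 8 other settings). The genotype difference, KO minus WT, was 0.10 (-0.13 to 0.33) on the high-fat diet and -0.07 (-0.30 to 0.16) on the standard diet, and the interaction, the diet difference in KO minus that in WT, was 0.17 and not called (adjusted p = 0.945).

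The 2 joint Ass1 and Gm5424 probe sets followed each other closely, with a gap of 0.09 to 0.13 on each array. The brighter read 13.33, 13.55 and 13.47 in KO livers and 13.48, 13.49 and 13.42 in WT livers on the high-fat diet. Standard-diet arrays gave 13.37, 13.70 and 13.55 in KO livers and 13.59, 13.44 and 13.53 in WT livers. The groups overlapped in every pair. Argininosuccinate synthetase, the Ass1 product, brings in the second nitrogen from aspartate. In a fit of all probe sets, high-fat minus standard diet was -0.09 and -0.08 in KO livers (adjusted p = 0.619 and 0.653) and -0.06 for both in WT livers (0.752 and 0.714). KO minus WT was at most 0.02 in size on either diet, with adjusted p of at least 0.955.

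Asl splits argininosuccinate into arginine and fumarate. It read 11.70, 11.85 and 12.06 in KO livers and 11.96, 11.75 and 11.82 in WT livers on the high-fat diet. Standard-diet values were 12.30, 12.59 and 12.41 in KO livers and 12.56, 12.35 and 12.43 in WT livers. All 6 high-fat livers lay below all 6 standard-diet livers, and the genotypes overlapped within each diet. In KO livers Asl fell by 0.57 on the log2 scale, or -32.5% (limma adjusted p = 0.00732). In WT livers the difference was -0.60 (SE 0.104, interval -0.82 to -0.38, -34.1%, limma adjusted p = 0.00573). Between genotypes the difference was 0.02 (-0.20 to 0.25) on the high-fat and -0.01 (-0.23 to 0.21) on the standard diet. Both intervals lie well inside the size of the diet difference.

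Arg1, the arginase that releases urea and returns ornithine, had the lowest adjusted p of the list in both genotypes. It read 12.00, 12.19 and 12.47 in KO livers and 12.18, 12.15 and 12.12 in WT livers on the high-fat diet. On the standard diet Arg1 read 12.77, 12.89 and 12.87 in KO livers and 12.98, 12.77 and 12.86 in WT livers. Again all 6 high-fat livers lay below all 6 standard-diet livers, with KO high-fat replicate 3 nearest to them. Arg1 fell by 0.62 on the log2 scale in KO livers (-35.1%, limma adjusted p = 0.00428) and in WT livers it fell by 0.72 (SE 0.101, interval -0.94 to -0.50, -39.2%, limma adjusted p = 0.00188). In the order of p over all genes, it was number 46 in WT livers. KO minus WT was 0.07 (-0.15 to 0.29) on the high-fat and -0.02 (-0.24 to 0.19) on the standard diet.

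Got1, the cytosolic aspartate aminotransferase that exchanges nitrogen between glutamate and aspartate, showed the widest spread of group means. It read 11.49, 11.35 and 11.90 in KO livers and 12.16, 11.76 and 12.01 in WT livers on the high-fat diet. Standard-diet Got1 read 12.46, 12.41 and 12.17 in KO livers and 12.74, 12.51 and 12.50 in WT livers. From the lowest to the highest, the order of the means was KO high-fat, WT high-fat, KO standard and WT standard. The 2 high-fat groups overlapped, WT high-fat and KO standard were parted by only 0.01 between their nearest arrays (12.16 and 12.17), and KO and WT standard by little more (12.46 and 12.50). The diet difference was -0.76 in KO livers (interval -1.06 to -0.47, -41.1%, limma adjusted p = 0.00681) and -0.61 in WT livers (-0.90 to -0.31, -34.3%, limma adjusted p = 0.0218). In WT livers the call ended without WT standard replicate 1, 2 or 3 (adjusted p = 0.0865, 0.0559 and 0.0544), without WT high-fat replicate 2 (0.0743), and in the fit of all probe sets (0.0532, in a range of 0.00937 to 0.0532 over 9 other settings). The genotype difference was -0.39 (-0.69 to -0.10, limma adjusted p = 1) on the high-fat diet and -0.24 (-0.53 to 0.06, adjusted p = 0.576) on the standard diet. Averaged over diets it was -0.32 (SE 0.0977, interval -0.52 to -0.11, limma adjusted p = 0.739), number 118 of all genes in the order of p. The Got1 promoter printed above is the one with 6 CCAAT matches, and a link of these to its expression was not tested.

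Glul, glutamine synthetase, had 2 probe sets, of which the brighter was used. It read 12.45, 12.67 and 12.65 in KO livers and 12.49, 12.62 and 12.56 in WT livers on the high-fat diet. Standard-diet Glul read 12.22, 12.20 and 12.25 in KO livers and 12.35, 12.33 and 12.38 in WT livers. All high-fat livers lay above all standard-diet livers, and on the standard diet all KO livers lay below all WT livers. Glul rose by 0.37 in KO livers (interval 0.20 to 0.53, 28.8%, limma adjusted p = 0.0136), whereas the difference of 0.21 in WT livers (15.3%) had an adjusted p of 0.12. The KO call ended without KO high-fat replicate 2 (0.0698) or 3 (0.0575) and in a fit of the KO arrays alone (0.0776, in a range of 0.00312 to 0.0776 over 9 other settings). The dimmer probe set gave 0.36 in KO (adjusted p = 0.0727) and 0.30 in WT livers (0.11) in the fit of all probe sets, and its mean of both, 0.33, had a limma adjusted p of 0.0104. Whether the diet difference of Glul was larger in KO was tested by the interaction, which was 0.16 (SE 0.106, interval -0.07 to 0.39, adjusted p = 0.945). Between KO and WT the difference was 0.03 (-0.13 to 0.19) on the high-fat and -0.13 (-0.29 to 0.03, adjusted p = 0.569) on the standard diet.

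Gatm, glycine amidinotransferase, takes the amidino group from arginine to start creatine synthesis and gives back ornithine. It read 8.39, 8.25 and 8.26 in KO livers and 8.60, 8.67 and 8.65 in WT livers on the high-fat diet. With the standard diet the values were 8.42, 8.28 and 8.32 in KO livers and 8.30, 8.50 and 8.43 in WT livers. The WT high-fat livers stood above the other 9, and the other 3 groups overlapped. KO minus WT was -0.34 (SE 0.0842, interval -0.52 to -0.16, -21.1%) on the high-fat diet. It was number 5 of all genes in the order of p in that comparison, yet the limma adjusted p was 1. The difference stayed between -0.39 and -0.32 when each array was left out. On the standard diet it was -0.07 (-0.25 to 0.11), and the interaction was -0.28 (SE 0.119, interval -0.53 to -0.02, limma adjusted p = 0.945). High-fat minus standard diet was -0.04 in KO (adjusted p = 0.813) and 0.23 in WT livers (17.5%, adjusted p = 0.117).

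Between KO and WT livers, 0 of the 8 genes were called by limma on the high-fat diet, beside 0% of all genes, and 0 of 8 on the standard diet, beside 0.00502% of all genes. The counts were also 0 for the mean of both diets (0% of all genes) and for the interaction (0% of all genes). At an unadjusted p under 0.05 there were 2 of the 8 on the high-fat diet (Got1 and Gatm), beside 571 of all genes, and 0 on the standard diet, beside 1939. There were 2 in the mean of both diets (Got1 and Gatm), beside 1323, and 1 in the interaction (Gatm), beside 944. The KO arrays lay wholly below the WT arrays for 1 gene on the high-fat diet (Gatm), beside 4.27% of all genes, and for 2 on the standard diet (Got1 and Glul), beside 4.52%. Without KO standard replicate 1, the array with the raised acute phase genes, KO minus WT on the standard diet was 0.01 for Cps1, Otc and Arg1, 0.06 for Asl, 0.15 for Nags, -0.29 for Got1, -0.13 for Glul and -0.11 for Gatm, with limma adjusted p of at least 0.775. Averaged over diets it was then -0.34 for Got1 and -0.22 for Gatm, and the interactions were 0.09 for Otc, 0.16 for Glul and -0.24 for Gatm, with none of them called.

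For diet in KO livers, 3 of the 8 genes were called lower (Asl, Arg1 and Got1), beside 2.66% of all genes, and 1 higher (Glul), beside 2.45%. Without KO standard replicate 1 these 4 KO differences were -0.63, -0.66, -0.71 and 0.37, with limma adjusted p of 0.011, 0.00929, 0.0271 and 0.0355. Those of Cps1, Otc, Nags and Gatm were then -0.13, 0.27, -0.31 and 0.00, and none of these 4 was called (adjusted p of at least 0.2). In WT livers 3 were lower (Asl, Arg1 and Got1), beside 1.69%, and 0 higher, beside 4.3%. In the mean of both genotypes 4 were lower (Asl, Arg1, Got1 and Nags), beside 7.69%, and 2 higher (Otc and Glul), beside 10.3%. The differences in that mean were -0.67 for Arg1, -0.58 for Asl, -0.68 for Got1 and 0.29 for Glul, with limma adjusted p of 6.42e-05, 0.000198, 0.000433 and 0.00261. The median difference of the 8 genes was -0.17 in KO livers and -0.14 in WT livers, beside -0.01 and 0.04 for all genes. Without overlap between the diets, 4 genes were lower in KO livers (Asl, Arg1, Got1 and Nags), beside 13.2% of all genes, and 1 was higher (Glul), beside 10.6%. In WT livers 4 were lower (Cps1, Asl, Arg1 and Got1), beside 10.9%, and 3 higher (Otc, Glul and Gatm), beside 19.4%. The shares of all genes called depend on single arrays. In KO livers they were 0.813% higher and 0.993% lower without KO high-fat replicate 2, and they also fell by more than 1.5 times without KO high-fat replicate 3 or KO standard replicate 1 or 2. In WT livers they were 1.38% higher and 0.572% lower without WT high-fat replicate 1, and they also fell by more than 1.5 times without WT high-fat replicate 2 or any 1 WT standard array. For the mean of both genotypes they stayed within 1.5 times, at 7.49% to 9.98% higher and 5.74% to 7.95% lower.

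These diet calls rest on the arrays of the diets being comparable. Among 1231 olfactory, vomeronasal and taste receptor genes, 7.64% were called between the diets in KO livers and 11.3% in WT livers, beside 4.94% and 5.64% of the other genes. From their shared shift in both genotypes an offset between runs with an SD of 0.215 was estimated. With that variance added, 0 of the 8 genes were called in any of the 3 diet comparisons (adjusted p = 1 for each). The error then exceeds that of the fit for every gene, bright or dim, and the offset of bright genes such as these was not measured. Under the other processing alternatives and with each array left out, Asl and Arg1 were called in both genotypes and Got1 in KO livers throughout.

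**Figure D2:**
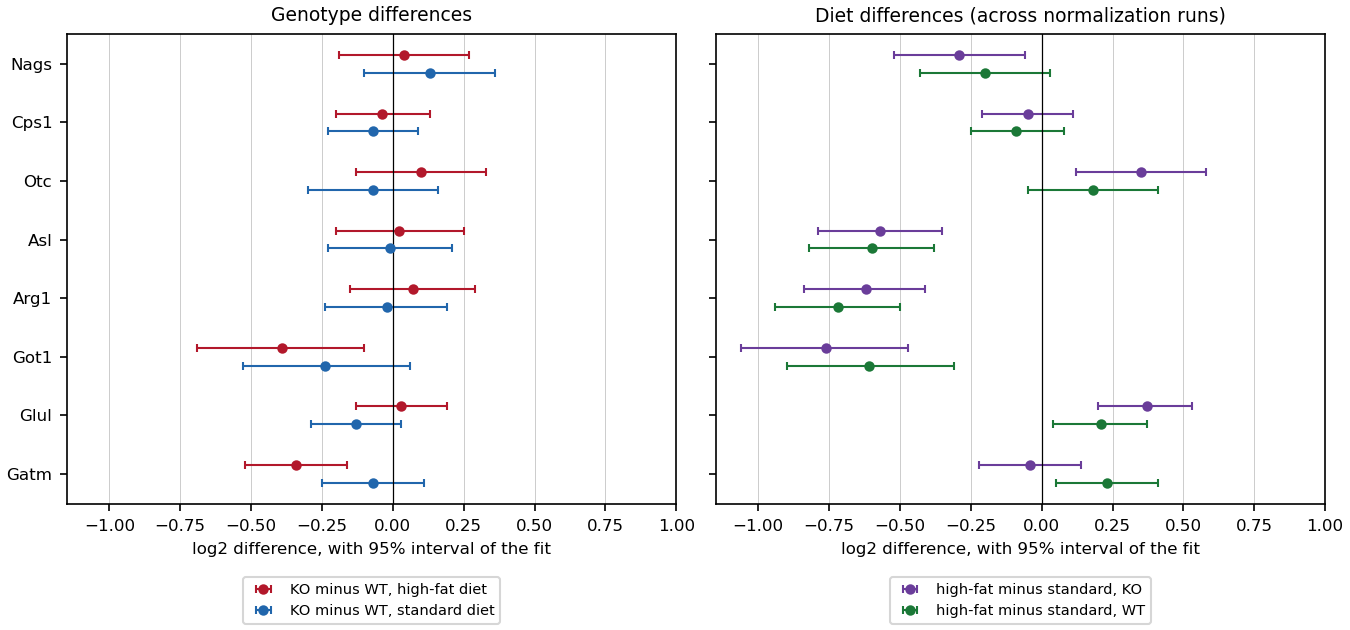
Differences on the log2 scale for the 8 genes (points) with the 95% interval of the limma fit (bars), for KO minus WT on each diet (left) and for high-fat minus standard diet in each genotype (right), over 12 arrays in 4 groups of 3. On the right, Asl, Arg1 and Got1 lie below 0 in both genotypes, and on the left, Got1 and Gatm on the high-fat diet have intervals that leave out 0.

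Carriers link the mitochondrial and cytosolic steps of the cycle, and all 19 listed nitrogen and amino acid transporters were measured. Averaged over genotypes 3 were called lower on the high-fat diet and 1 higher, and the median over the list was 0.05, beside 0.01 for all genes. For this and the following lists, the share of all genes called in that mean was 7.69% lower and 10.3% higher. Slc25a15, which exchanges ornithine and citrulline across the inner mitochondrial membrane, read 10.70, 10.78 and 10.83 in KO livers and 11.03, 10.93 and 10.95 in WT livers on the high-fat diet. Standard-diet values were 11.28, 11.47 and 11.33 in KO livers and 11.29, 11.20 and 11.29 in WT livers. It thus was low on every high-fat array and lowest in KO. Slc25a15 fell by 0.59 in KO livers (limma adjusted p = 0.00118) and by 0.29 in WT livers (limma adjusted p = 0.0439), where the call ended without any 1 of 8 arrays (all 6 WT arrays and KO high-fat replicates 2 and 3, adjusted p up to 0.138). Slc25a22, a mitochondrial glutamate carrier, read 10.13, 10.08 and 10.16 in KO livers and 10.77, 10.48 and 10.46 in WT livers on the high-fat diet. With the standard diet the values were 10.85, 10.94 and 10.97 in KO livers and 10.89, 10.71 and 10.89 in WT livers. The KO high-fat livers stood apart below the other 9. Slc25a22 fell by 0.80 in KO livers (SE 0.0919, -42.6%, limma adjusted p = 0.000561). KO minus WT on the high-fat diet was -0.45 for Slc25a22 (interval -0.65 to -0.25), which made it number 1 of all genes in the order of p, although the limma adjusted p was 1. For Slc25a15 it was -0.20 (-0.37 to -0.04, adjusted p = 1), and for both genes all KO arrays lay below all WT arrays. Their interactions were -0.54 (-0.82 to -0.26) and -0.30 (-0.54 to -0.07), each with a limma adjusted p of 0.945. Without KO standard replicate 1 the KO diet differences were -0.84 for Slc25a22 and -0.63 for Slc25a15 (limma adjusted p = 0.00131 and 0.00236) and the interactions -0.58 and -0.35. Averaged over genotypes Slc25a12, an aspartate and glutamate carrier, fell by 0.24 (limma adjusted p = 0.0198). Slc1a2, a glutamate importer of pericentral hepatocytes, rose by 0.45 (limma adjusted p = 0.00489) in that mean and by 0.52 in KO livers (0.0346), where the call ended without any 1 of 5 arrays (WT standard replicate 1, KO standard replicates 1 and 2, KO high-fat replicates 2 and 3).

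**Figure D3:**
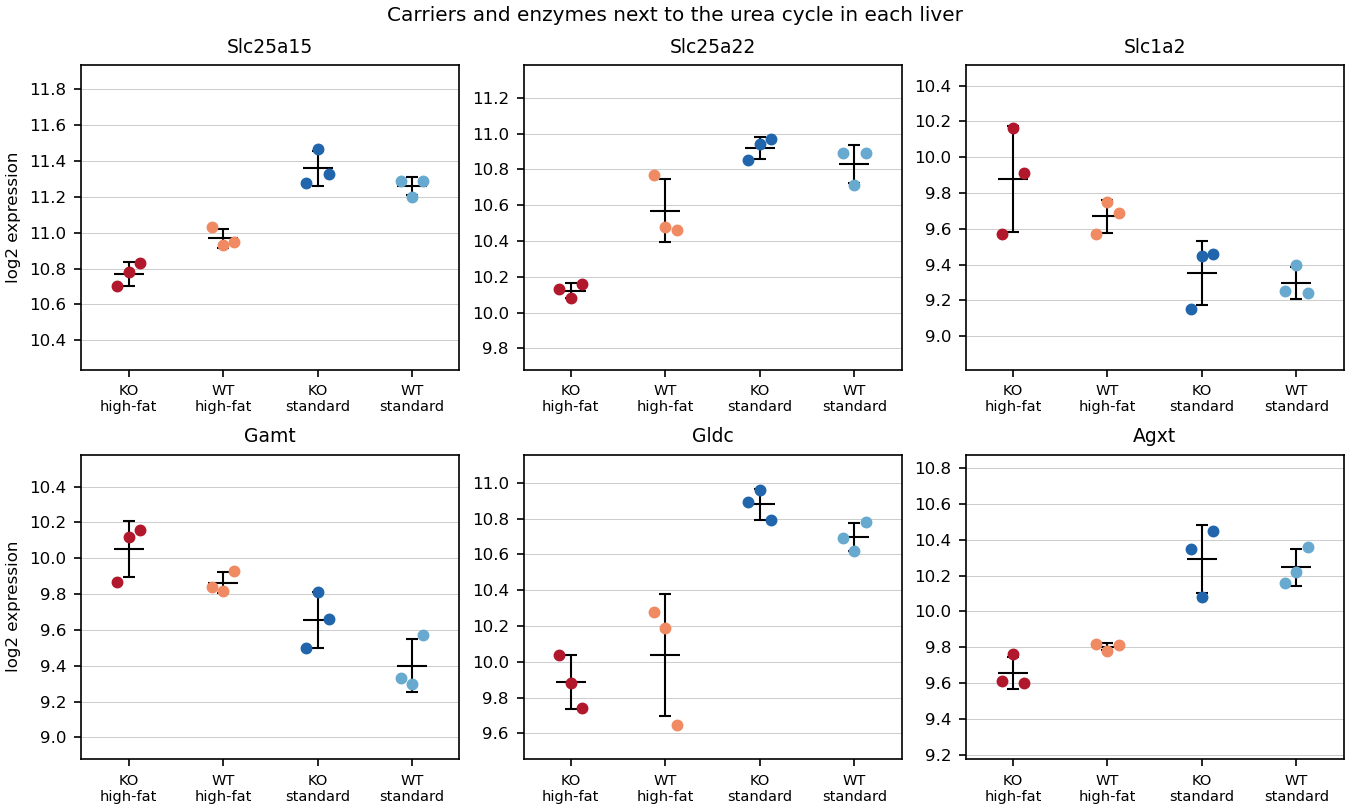
Log2 expression of 3 carriers (Slc25a15, Slc25a22, Slc1a2) and 3 enzymes (Gamt, Gldc, Agxt) in each of 12 livers (points), with group mean (line) and SD (bars, n = 3 arrays per group). Slc25a22 stands at 10.08 to 10.16 in KO high-fat livers, below every other array, and Gldc and Agxt are lower on every high-fat array than on any standard-diet array.

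Of the 20 listed enzymes that handle ornithine, glutamate and aspartate beside the cycle, 17 were measured. Averaged over genotypes 3 were called higher on the high-fat diet (Gamt, Nit2 and Sirt5) and 1 lower (Glud1), with a median over the list of 0.05. Gamt, which methylates the product of Gatm to creatine, read 9.87, 10.12 and 10.16 in KO livers and 9.84, 9.82 and 9.93 in WT livers on the high-fat diet. Standard-diet Gamt read 9.50, 9.81 and 9.66 in KO livers and 9.33, 9.30 and 9.57 in WT livers. Within each genotype the diets did not overlap. Gamt rose by 0.39 in KO livers (limma adjusted p = 0.0484) and by 0.46 in WT livers (0.0232), and by 0.43 in the mean of both (0.00191). The KO call ended without any 1 of 8 arrays (WT standard replicates 1 and 2, KO standard replicates 1 and 3, WT high-fat replicates 1 and 2, KO high-fat replicates 2 and 3) and the WT call without any 1 of 4 (WT standard replicates 1 and 2, WT high-fat replicates 1 and 3), while the call on the mean held without each array. Sirt5, a mitochondrial deacylase known to act on the Cps1 protein, rose by 0.36 in that mean (limma adjusted p = 0.0115). Nit2, an omega-amidase, rose by 0.32 (0.0196), a call that ended without WT standard replicate 2 (0.0556) or KO high-fat replicate 2 (0.0524). Glud1, glutamate dehydrogenase, which releases ammonia from glutamate in the mitochondria, fell by 0.20 (0.0373), a call that ended without replicate 1 or 3 of WT standard, KO standard or WT high-fat, or replicate 1 or 2 of KO high-fat. Asns, which makes asparagine from aspartate, had the smallest p of these enzymes between the genotypes on the high-fat diet, with a difference of -1.48 (interval -2.44 to -0.53, limma adjusted p = 1). It read 7.43, 6.88 and 7.54 in KO livers against 8.99, 9.80 and 7.50 in WT livers, where WT replicate 3 lay within the KO range.

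The enzymes that break down amino acids feed nitrogen to the cycle, and 46 of the 50 listed were measured. The 50 also hold Uox and Xdh, enzymes of purine breakdown, which do not act on amino acids. Averaged over genotypes 11 were called lower on the high-fat diet and 6 higher, and the median over the list was -0.02. Gldc, of the glycine cleavage system that frees ammonia from glycine, read 10.04, 9.88 and 9.74 in KO livers and 10.28, 10.19 and 9.65 in WT livers on the high-fat diet. Standard-diet values were 10.89, 10.96 and 10.79 in KO livers and 10.69, 10.62 and 10.78 in WT livers. Every high-fat liver lay below every standard-diet liver, and WT high-fat replicate 3 was the lowest of all. Gldc fell by 0.99 in KO livers (-49.6%, limma adjusted p = 0.00148) and by 0.66 in WT livers (-36.5%, 0.0137), the WT call ending without WT standard replicate 3 (0.0603). Agxt, alanine-glyoxylate aminotransferase, fell by 0.64 in KO livers (limma adjusted p = 0.00312) and by 0.44 in WT livers (0.0191), the WT call ending without WT standard replicate 2 or 3 or WT high-fat replicate 1 or 2. Its high-fat values were 9.61, 9.76 and 9.60 in KO and 9.82, 9.78 and 9.81 in WT livers, against 10.35, 10.08 and 10.45 in KO and 10.16, 10.22 and 10.36 in WT livers on the standard diet.

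Averaged over genotypes the other enzymes called lower included Hal (-0.51), which opens histidine breakdown, and Tat (-0.39), the tyrosine aminotransferase. The rest were Cbs (-0.37) and Cth (-0.33) of transsulfuration, Bhmt (-0.30), Ftcd (-0.29), Amt (-0.28), Dao (-0.23) and Kynu (-0.21). Dao was dim, at 5.32 to 5.87 over all arrays, whereas array medians lay between 6.34 and 6.47. In KO livers alone Cbs fell by 0.60 (limma adjusted p = 0.00361), Hal by 0.58 (0.0172) and Cth by 0.43 (0.0331). Of these 3, the Cbs call held without each array, the Hal call ended without KO standard replicate 1 or KO high-fat replicate 2 or 3, and the Cth call without KO standard replicate 2 or 3 or KO high-fat replicate 2 or 3. In WT livers alone Ftcd fell by 0.38 (0.0431) and Bhmt by 0.32 (0.0321). The Bhmt call ended without any 1 WT array, and the Ftcd call without any 1 WT standard array, WT high-fat replicate 1 or 3 or KO high-fat replicate 3. Called higher in the mean were Agxt2 (0.42), a mitochondrial aminotransferase, Pcca (0.26) and Haao (0.23). Hibadh (0.34) and Bckdhb (0.26) of branched-chain amino acid breakdown and Uox (0.46), the urate oxidase of purine breakdown, were also called higher. Of these 17 calls, 13 held without each array, 8 lower and 5 higher, and those of Amt, Dao, Haao and Kynu did not (adjusted p up to 0.113). The Amt call ended without WT standard replicate 2 or 3 and the Haao call without WT standard replicate 2, while the Dao call held only without KO standard replicate 2 or 3 and the Kynu call only without KO standard or high-fat replicate 1. Uox and Hibadh were called in both genotypes, at 0.48 and 0.35 in KO and 0.44 and 0.32 in WT livers, and Agxt2 in KO livers at 0.47. These 3 KO calls ended without KO standard replicate 1 or 2 or KO high-fat replicate 2 or 3, the WT call of Uox without any 1 WT standard array or WT high-fat replicate 3, and that of Hibadh without any 1 WT array. Without KO standard replicate 1 the KO differences were -0.99 for Gldc, -0.61 for Agxt and -0.55 for Cbs, all called. There were 45 diet calls among the carriers, the enzymes beside the cycle and the amino acid breakdown list, those of Uox included. Other settings, counted here without the run offset variance and without leaving out single arrays, included a fit of only the groups compared. Of the 45 calls, 17 ended in at least 1 of these settings, with limma adjusted p from 0.0515 to 0.165. The 17 were the KO calls of Gamt, Slc1a2, Agxt2, Cth and Hibadh and the WT calls of Gamt, Slc25a15, Bhmt, Ftcd, Hibadh and Uox. The others were the calls in the mean of Glud1, Nit2, Dao, Haao, Kynu and Pcca. With the run offset variance none of the carriers and enzymes named here was called.

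Between KO and WT livers 0 genes of these lists were called by limma. Uroc1, the urocanase of histidine breakdown, had the smallest p of the list on the standard diet and was higher on all KO arrays of both diets. It read 10.49, 10.78 and 10.57 in KO against 10.39, 10.44 and 10.28 in WT livers on the high-fat diet, and 10.54, 10.63 and 10.49 in KO against 10.09, 10.08 and 10.30 in WT livers on the standard diet. Averaged over diets KO minus WT was 0.32 (SE 0.0667, interval 0.18 to 0.46, limma adjusted p = 0.508), and without KO standard replicate 1 it was again 0.32 (0.782), with 0.40 on the standard diet. Cbs was on opposite sides in the diets, at -0.21 on the high-fat and 0.24 on the standard diet, with an interaction of -0.46 (interval -0.74 to -0.18, limma adjusted p = 0.945) that was -0.41 without KO standard replicate 1. Of 11 regulators of urea cycle genes, such as the glucagon receptor Gcgr, Ppargc1a and Klf15, all were measured and 1 was called, Nr3c1, the glucocorticoid receptor, which rose by 0.26 in the mean of both genotypes (limma adjusted p = 0.0337), a call that ended without replicate 1 or 2 of WT standard, KO standard or WT high-fat, or replicate 2 or 3 of KO high-fat, in the fit of all probe sets (0.0559) or with each array centred on its median (0.109). The regulators' median diet difference was -0.12 in KO and -0.11 in WT livers.

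Because Arg1, Asl and the other cycle enzymes are periportal and Glul is pericentral, markers of both zones are given beside them. The mean level of 9 periportal markers was 10.27 to 10.38 in KO and 10.25 to 10.34 in WT livers on the high-fat diet, against 10.56 to 10.61 in KO and 10.41 to 10.46 in WT livers on the standard diet. The high-fat groups thus lay below the standard-diet groups of their genotype, KO lay above WT on the standard diet, and 3 of the 9 were called lower and 1 higher in the mean of both genotypes. The mean of 10 pericentral markers was 10.11 to 10.38 in KO and 10.25 to 10.35 in WT livers on the high-fat diet, against 10.04 to 10.20 in KO and 10.11 to 10.18 in WT livers on the standard diet. Of these 10, 3 were called higher and 0 lower. The marker lists share genes with the lists above. Of the listed periportal markers, Hal and Sds are also listed for amino acid breakdown. Of the listed pericentral markers, Slc1a2 and Rhbg are also listed as transporters and Oat as an enzyme beside the cycle. Markers of other liver cells (22 genes) averaged 7.53 to 7.55 in KO and 7.60 to 7.75 in WT livers on the high-fat diet, against 7.49 to 7.57 in KO and 7.42 to 7.49 in WT livers on the standard diet, and 6 of the 22 were called higher on the high-fat diet in the mean of both genotypes. In whole liver, fewer cells of a kind and less RNA per cell cannot be told apart. The part of these markers in the diet differences was not tested.

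**Figure D4:**
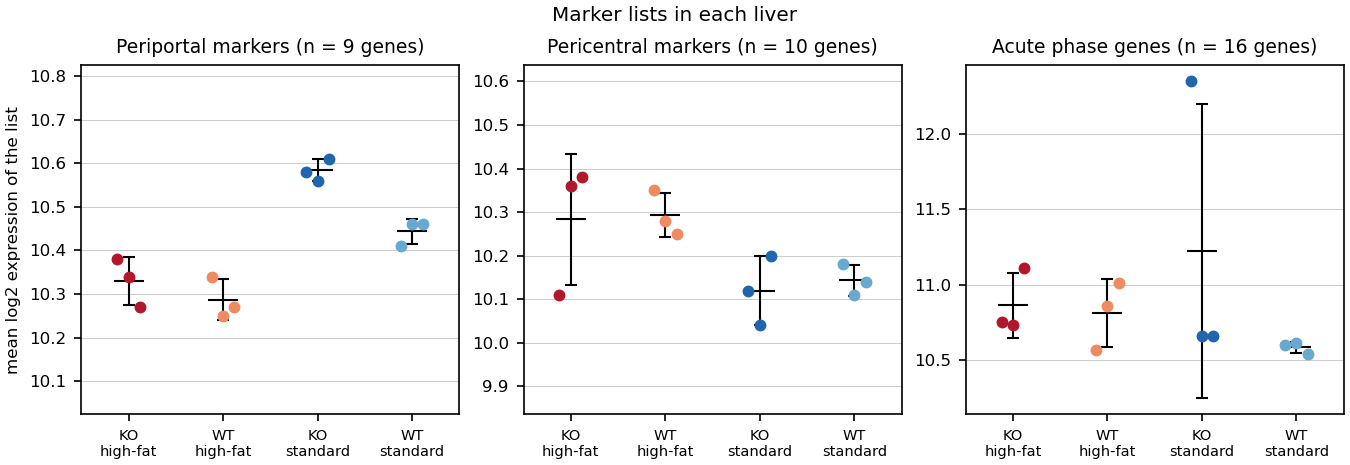
Mean log2 expression of 9 periportal markers, 10 pericentral markers and 16 acute phase genes in each of 12 livers (points), with group mean (line) and SD over arrays (bars, n = 3 arrays per group); the axes differ between panels. Periportal means are lower on the high-fat diet in both genotypes, and KO standard-diet replicate 1 stands at 12.35 for the acute phase genes.

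Within groups the cycle enzymes varied from array to array. The mean deviation of Cps1, Otc, Asl and Arg1 from their group means was lowest on KO high-fat replicate 1 and KO standard replicate 1, at -0.13 each, and highest on KO high-fat replicate 3, at 0.14. KO standard replicate 1 is the array with the raised acute phase genes, which averaged 12.35 there. These genes averaged 10.75 on KO high-fat replicate 1 and 11.11 on KO high-fat replicate 3. A link between acute phase genes and cycle enzymes was not tested. Among 28 pairs of the 8 genes, deviations of Asl and Arg1 had the highest correlation (Pearson r 0.85, Spearman rho 0.79, and r 0.82 without the 2 arrays farthest from the median of Asl), and those of Asl and Gatm the lowest (r -0.84, rho -0.83 and r -0.87). These are descriptions over 12 arrays that share normalization runs. Over the same arrays, the genes whose deviations were most like the mean of the 4 cycle enzymes were Mpv17l (r 0.98), C1d (0.97), Gpld1 (0.97), Nsmce4a (0.95) and Nepro (0.95). These were the highest among the genes with a value on every array, with the 8 genes left out. Picking the highest of so many genes over 12 arrays favours a high r by itself.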

How the data were processed

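The members, the other gene lists and the rule for named genes were chosen with earlier results of these data known. The deposited table holds 1 log2 value per probe set and array, which the authors obtained by RMA; the submitters' processing notes name Affymetrix Expression Console. Its version and options are not given in the sources used here. No further normalization was applied, and array medians lay between 6.34 and 6.47. Groups and replicate numbers came from the labels. Of 35557 probe sets, 21789 had 1 gene symbol, 1621 several and 12147 were not listed; 21698 matched RefSeq by Entrez ID. For 999 genes with several probe sets the brightest was kept.

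A model with 1 mean per group over all 12 arrays was fitted with limma 3.58.1 in R 4.3.3, with moderation along an intensity trend; the residual degrees of freedom were 8, and 14.5 at the median after moderation. The fit was tested on simulated data, with genes changed on the KO standard-diet arrays only. Noise was drawn independently for each gene and array, with no effect shared by the genes of an array. The fit called 41.8% of log2 changes of 0.5 (67 genes), 97% of changes of 1 (67 genes) and 100% of changes of 2 (66 genes). These shares may therefore not hold for the real arrays. Of 165 calls, 6 were false. Changes smaller than 0.5 were not simulated, and all genotype differences of the 8 genes were smaller than that. Named are all members, Sirt3, up to 12 called genes per direction from the other lists (or the 3 with the smallest p), of which the text gives a selection, and the 5 genes most like the cycle mean. Deviations of same-numbered arrays correlated at -0.21 to 0.41, so the numbers were not taken to pair the samples. The number of arrays limits the precision. Figures were drawn with matplotlib 3.10.9.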

Additional observations from a re-analysis of the deposited data

How the results depend on the processing

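Adding the run offset variance took the number of called genes of the list to 0 in KO livers, 0 in WT livers and 0 in the mean of both genotypes for the diet comparisons, against 4, 3 and 6; this alternative widens the error by its construction. Under the other settings the counts were 3 to 5, 2 to 4 and 5 to 6, with each array left out 3 to 5, 2 to 3 and 4 to 5, and 0 throughout for the genotype comparisons and the interaction. The replicate number as a block gave 4, 3 and 5, and 0 for the others, and it changed the call of 1 of the 8 genes, Nags in the mean of both genotypes. Small genotype differences changed sign. For Asl, KO minus WT was -0.03 on the high-fat diet with array weights and 0.01 on the standard diet after quantile normalization. With each array left out, the high-fat difference ranged from -0.07 to 0.11 for Asl, -0.05 to 0.18 for Arg1, -0.06 to 0.13 for Nags and -0.01 to 0.10 for Glul. The standard-diet difference ranged from -0.12 to 0.01 for Cps1, -0.19 to 0.01 for Otc, -0.09 to 0.06 for Asl, -0.08 to 0.03 for Arg1, -0.40 to 0.02 for Fgf21 and -0.35 to 0.04 for Ppargc1a, and the interaction of Cebpb from -0.09 to 0.55. Over all genes, calls between the diets split into 858 higher and 336 lower in WT livers, but 425 and 618 after median centring and 647 and 576 after quantile normalization. In the mean of both genotypes the split was 2049 and 1533, but 1510 and 1988, and 2059 and 2097. In KO livers 488 and 530 were called, and 770 and 762 after quantile normalization. With each array left out, 162 to 577 were called higher and 198 to 709 lower in KO livers, the fewest without KO high-fat replicate 2, and 275 to 959 higher and 114 to 373 lower in WT livers, the fewest without WT high-fat replicate 1. With array weights the calls were 925 and 1091 in KO and 2519 and 1113 in WT livers, with only the arrays compared 184 and 197 in KO livers, and with the run offset variance 3 and 2 in KO, 6 and 1 in WT livers and 6 and 3 in the mean. The cause of these shifts was not tested. Glul was called in WT livers after quantile normalization (adjusted p = 0.0377, range 0.0377 to 0.46), Gatm in WT livers with array weights (0.0445, range 0.0445 to 0.351), and Otc in KO livers with array weights (0.0165, range 0.0165 to 0.171), after quantile normalization (0.0182) and without KO standard replicate 3 (0.0190). Signal over background was not used here.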
